A study of Zea mays with 12 samples.

Results

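The comparison set stem tissue of maize whose leaf sheaths were wounded and treated with caterpillar regurgitate against stem tissue of untreated plants. It used the 3 regurgitate and the 3 control libraries of a 12-library series, and its members were the features of the count table that carry a maize gene identifier, which were 29723 of 194389 features. All plants were of the inbred line PB130 and grew in a greenhouse. Treatments were given around silking and tassel emergence. In the regurgitate group the leaf sheaths below the main ear were scratched with a scalpel, regurgitate of *Sesamia nonagrioides* larvae suspended in phosphate buffer was put on each wound, the site was sealed with parafilm, and the treatment was repeated every other day. Control plants received no wound, no buffer and no larva. A wounding group was scratched in the same way and received phosphate buffer alone, and the last group carried larvae. At day 15 an undamaged piece of the internode just below the ear was taken from each plant without its leaf sheath, so the sampled tissue was not the tissue that had been scratched. Each library came from a different plant. The regurgitate group differed from the control by the wound, the buffer, the seal and the regurgitate together, and these cannot be told apart by this comparison. All values refer to 1 inbred line.

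*S. nonagrioides* is a noctuid moth whose larvae bore into maize stems. Oral secretions of caterpillars carry fatty acid-amino acid conjugates that maize can perceive, and wounding and such elicitors both act through jasmonate, a hormone made from plastid fatty acids by lipoxygenase, allene oxide synthase and 12-oxophytodienoate reductase. Known defences of maize stems are benzoxazinoids, which are indole-derived toxins stored as glucosides, diterpenoid phytoalexins, phenylpropanoids and flavonoids, proteinase inhibitors, and pathogenesis-related proteins such as chitinases and glucanases that act on fungal walls.

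The libraries were made by massive analysis of cDNA 3′ ends (MACE), in which each read comes from the 3′ end of a transcript. Control libraries held 6474738 to 8508332 counts and regurgitate libraries 6008657 to 6888308. Maize genes took 87.5% to 89.7% of the counts in the controls, and 72.8%, 44.2% and 93.1% in regurgitate replicates 1, 2 and 3. The mean share was lower by 18.5 percentage points in the regurgitate group, at 70.1% ± 24.5 against 88.6% ± 1.1 (SD, n = 3 each), and an exact two-sided permutation test gave p = 0.4, where 0.1 is the smallest p that 3 against 3 allows. The difference was -5.61 points without regurgitate replicate 2 and -30.0 points without replicate 3. Contigs assembled from reads outside the genome took 2.34% to 4.12% in the controls, 19.2% and 48.0% in regurgitate replicates 1 and 2, and 1.03% in replicate 3. Contigs described as fungal took 0.238% to 0.501% in the controls and 10.9% to 24.8% in the wounding libraries. In the regurgitate group they took 4.56% and 14.7% in replicates 1 and 2 and 0.06% in replicate 3, which was below every control. The part of fungal RNA in the gene differences below was not tested. Genes for stem wall formation summed to 1383 to 3314 CPM in the 6 libraries (CPM is the usual depth-scaled count, here relative to the counts on maize genes and scaled by the trimmed mean of M values, TMM), while 11 kernel marker genes summed to 1.44 to 9.83 CPM and only 1 of them had enough counts to be tested. Of the 18 tested stem genes, 12 (66.7%) lay below all controls in the regurgitate group, against 14.4% of all genes, with a median log2 fold change of -1.44. edgeR called 0 of them, with 1 higher and 12 lower at an unadjusted p below 0.05, while DESeq2 called 9 lower and voom 2 lower. Green leaf markers summed to 5429 to 10420 CPM and markers of dividing cells to 5410 to 9105 CPM. The pollen list summed to 1591 to 1927 CPM, with 16 genes tested, which lies within the range of the stem list. These sums therefore do not set stem apart from the tissues of those lists.

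**Figure D1:**
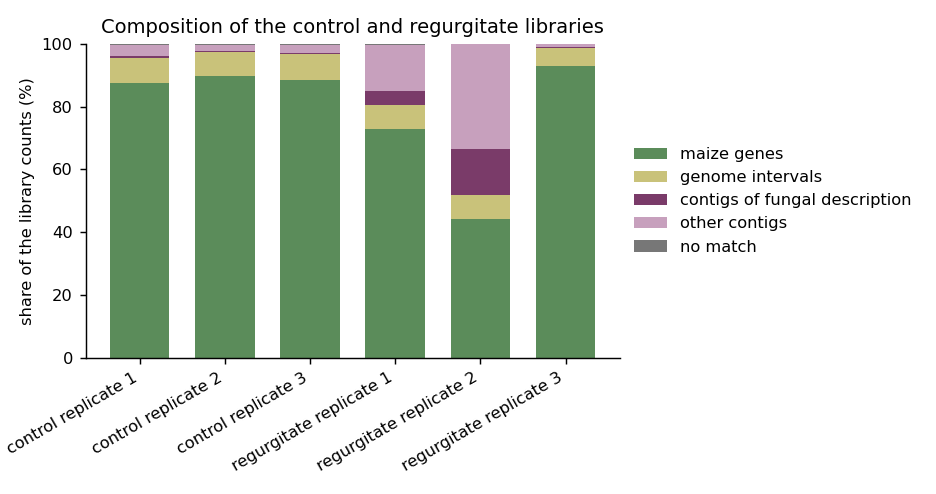
Bars show the share of each library's counts, in percent, on maize genes, genome intervals without a gene, contigs described as fungal, other contigs and reads without a match. Maize genes took 72.8% and 44.2% of regurgitate replicates 1 and 2 and 93.1% of replicate 3, where all contigs together took 1.03%.

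Regurgitate replicate 3 stood apart in how its counts were spread over features. Of 1124 contigs with more than 2 CPM of the whole library in each control, 239 had no count in replicate 3, against 2 in replicate 1 and 5 in replicate 2, and their median level in replicate 3 was 0.0704 of the control mean. Its low share of fungal contigs therefore stands beside a low share of contigs that the controls also held. Replicate 3 may have been aligned or counted differently from the other 11 libraries. The sources used here do not say so and it was not tested, so its contig shares, and its levels of the genes described next, are read with that limit. Some maize genes showed the same pattern. In replicate 3, 334 of 14699 genes were more than 10-fold below the lowest of the other 11 libraries, and no other library had more than 17 such genes. Features that join several maize identifiers made up 96 of the 334, out of 182 that could be judged, while no other library had any of the 82 or 83 that could be judged there. Examples with the largest drop against replicates 1 and 2 were the joined features GRMZM2G071771,AC233926.1_FG002 (PVR3-like protein), with 512 and 140 CPM in replicates 1 and 2, 0 in replicate 3 and 488 to 866 in the controls, and GRMZM2G021617,GRMZM2G058070 (oxygen-evolving enhancer protein 3-1), with 459, 374 and 0.776 CPM against 261 to 411 in the controls. A beta-galactosidase feature, GRMZM2G081583,GRMZM2G027385, had 51.6, 830 and 0.155 CPM against 18.5 to 42.1. None of the 334 was among the genes called in either direction with all 6 libraries. Their selection put replicate 3 far below all controls and far from replicates 1 and 2. A higher call was thus all but impossible and a lower call less likely, so this absence does not show that the calls were free of the pattern. In the other direction, the genes that replicate 3 held most above replicates 1 and 2 were GRMZM5G878558 (aliases NAR and NR, nitrate reductase), with 0.237, 1.55 and 18.8 CPM, GRMZM2G085924 (herbicide safener binding protein), with 5.2, 19.0 and 131.8 CPM, and GRMZM2G100864 (phosphoribosylanthranilate transferase), with 0.237, 0 and 3.1 CPM. The controls held 1.16 to 6.03, 14.7 to 74.3 and 2.49 to 4.64 CPM of these 3 genes, so the range of the regurgitate group crossed that of the controls in each case.

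Stems of regurgitate-treated plants held more transcript of a laccase (lac3), a benzoxazinoid methyltransferase (BX14), a chalcone synthase (whp1), 12-oxophytodienoate reductases (opr1 and opr2), a beta-1,3-glucanase and a Bowman-Birk trypsin inhibitor, and less of a plastid glucose-6-phosphate importer and of proline oxidase. Of 19171 genes tested with edgeR's quasi-likelihood test, 208 were higher and 37 were lower at a false discovery rate (FDR) below 0.05, which is 1.28% of the genes tested (1.08% higher and 0.193% lower). The higher genes had log2 fold changes of 1.08 to 7.25 with a median of 3.06, and 181 of them exceeded a 4-fold change. The lower genes had log2 fold changes of -1.33 to -4.45 with a median of -2.31. In all 245 genes the 3 regurgitate libraries lay outside the range of the 3 controls, a separation that 15.2% of all tested genes showed upwards and 14.4% downwards. The calls lay close to the threshold, with a smallest FDR of 0.0193, and their number rested on every library. Without control replicate 1, 2 or 3 the test called 0, 0 and 1 genes, with 3037, 2740 and 2582 genes at an unadjusted p below 0.05, and without regurgitate replicate 1, 2 or 3 it called 34 (0.171%), 171 (0.862%) and 490 (2.48%). DESeq2 called 1146 genes higher (5.98%) and 561 lower (2.93%), 8.9% in all, all 245 among them. Of its calls 67% were higher, against 84.9% in the quasi-likelihood test. In simulated data with changes of log2 2, DESeq2 called 69 unchanged genes and edgeR 4, and they recovered 80% and 36.5% of the changed genes. The simulated counts were drawn with dispersions that edgeR had estimated and held no uneven library. They do not settle which test fits these libraries better. Voom with sample weights called 453 higher (2.36%) and 125 lower (0.652%), and 11.4% of the genes were higher and 8.02% lower at an unadjusted p below 0.05 in edgeR. In the 6 fits that each left out 1 library, all 245 genes kept their direction, which the separation of their groups all but fixed in advance.

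**Figure D2:**
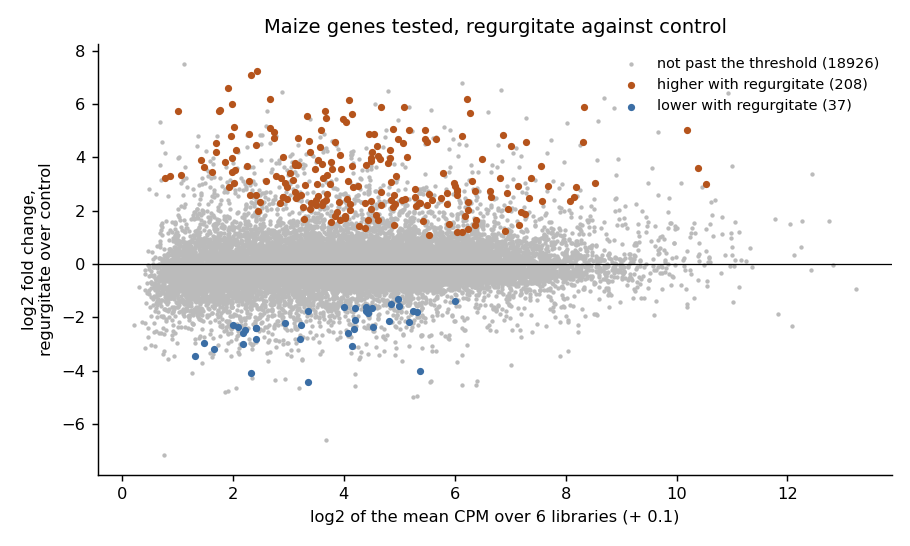
Each point is 1 of 19171 maize genes, by the log2 of its mean CPM over the 6 libraries and its log2 fold change, regurgitate over control. Genes past the threshold were 208 above 0 and 37 below 0.

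The smallest unadjusted p of the comparison belonged to a laccase gene. Laccases are copper oxidases of the apoplast that oxidise phenolics, monolignols among them. GRMZM2G169033 (lac3) had 109, 219 and 131 CPM in regurgitate replicates 1, 2 and 3 and 3.28, 2.17 and 3.48 CPM in the controls. The groups were far apart, with a log2 fold change of 5.66 ± 0.39 (SE, FDR = 0.0193). The list of laccases held 10 genes, of which 3 were tested and this 1 was called, where 1.28% of all genes were called. Outside the list, and chosen after their values were seen, GRMZM2G094375 (Laccase-7) was higher by log2 5.9 ± 0.66 (FDR = 0.0207), and AC234190.1_FG002, annotated as similar to a rice laccase precursor, by 4.84 ± 0.51 (FDR = 0.0193).

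Benzoxazinoid genes did not move as a group. GRMZM2G127418 (BX14), the O-methyltransferase that converts a DIMBOA-type glucoside to its N-methoxy form, had 59.4, 80.3 and 60.2 CPM against 5.77, 3.33 and 3.04 in the controls, and was higher by log2 4.02 ± 0.32 (FDR = 0.0193). GRMZM5G841619, described as indole-3-glycerol phosphate lyase, the type of enzyme that releases indole from the tryptophan pathway, had 691, 329 and 338 CPM against 113, 70.8 and 80.1. Its log2 fold change was 2.36 ± 0.39 (FDR = 0.0481). These were the 2 called genes among 12 tested (16.7% against 1.28% of all genes), and the median of the list was -0.17 against -0.04 for all genes tested. GRMZM2G172491 (BX4), a cytochrome P450 early in the core pathway, had 8.28, 5.82 and 21.9 CPM against 20.3, 37.1 and 70.8, groups that overlapped, and it did not pass (log2 -1.79 ± 0.62, FDR = 0.195).

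Entry enzymes of phenolic synthesis were higher, while the lists they belong to had negative medians. Phenylalanine ammonia-lyase makes cinnamate from phenylalanine. Its gene GRMZM2G170692 had 28.4, 20.6 and 20.6 CPM against 6.95, 3.66 and 7.39 in the controls (log2 1.94 ± 0.33, FDR = 0.0498). It was the only call among 16 phenylpropanoid and monolignol genes (6.25% against 1.28% of all genes), whose median was -0.55. Chalcone synthase is the first enzyme of flavonoid synthesis. GRMZM2G151227 (whp1) had 76.6, 29.1 and 30.1 CPM against 1.31, 1.17 and 2.03, all regurgitate libraries being more than 10 times above every control (log2 4.89 ± 0.52, FDR = 0.0193). GRMZM2G152179, a flavonol 4-sulfotransferase, was steady within each group, with 35.0, 44.2 and 33.2 CPM against 6.82, 7.66 and 7.24 (log2 2.37 ± 0.21, FDR = 0.0193). These 2 were the called genes among 41 of the flavonoid list (4.88% against 1.28% of all genes), whose median was -0.26.

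Genes of the jasmonate and terpenoid lists were among the higher genes. Allene oxide synthase commits the fatty acid hydroperoxide to jasmonate, and its gene GRMZM2G067225 (aos1) had 240, 215 and 175 CPM against 91.9, 59.3 and 76.1 (log2 1.47 ± 0.25, FDR = 0.0495). The reductase genes GRMZM2G000236 (opr2) and GRMZM2G106303 (opr1) belong to the 12-oxophytodienoate reductase family, some of whose members act in jasmonate synthesis. Whether opr1 and opr2 do so was not tested. The level of opr2 was 229, 109 and 172 CPM against 6.95, 15.2 and 11.01 (log2 3.95 ± 0.42, FDR = 0.0193). That of opr1 was 17.03, 34.5 and 13.5 CPM against 2.23, 0.833 and 1.16 (log2 3.89 ± 0.54, FDR = 0.0333). No other of 34 tested genes in the list of jasmonate synthesis and JAZ repressors was called (8.82% called against 1.28% of all genes). The median of the list was 0.25. Of 27 terpenoid genes, 2 were called (7.41% against 1.28% of all genes). GRMZM2G044481 (an2), the ent-copalyl diphosphate synthase that starts the kauralexin phytoalexins, had 129, 106 and 106 CPM against 8.26, 16.7 and 19.6 (log2 2.94 ± 0.34, FDR = 0.0233). AC194970.5_FG001, a geranylgeranyl pyrophosphate synthase, had 106.5, 97.0 and 89.5 CPM against 42.1, 50.3 and 34.8 (log2 1.2 ± 0.2, FDR = 0.0498). GRMZM2G493395 (dxs2), the entry enzyme of the plastid isoprenoid pathway, had 286, 117 and 236 CPM against 26.6, 45.5 and 55.6, with no overlap between the groups, and did not pass (FDR = 0.0622).

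Pathogenesis-related proteins are made in response to microbes and wounds. Of 27 tested members, 4 were higher and none was lower (14.8% called against 1.28% of all genes), and the median log2 fold change was 1.16. Above all controls lay 14 (51.9% against 15.2% of all genes), and below them 5 (18.5% against 14.4%). At an unadjusted p below 0.05 in edgeR, 14 were higher and 4 lower. GRMZM2G125032, a beta-1,3-glucanase, had 875, 586 and 506 CPM against 67.2, 77.8 and 93.6 (log2 3.04 ± 0.31, FDR = 0.0193). GRMZM2G358153 (chitinase 1) had 564, 475 and 414 CPM against 53.1, 102.9 and 94.6 (log2 2.54 ± 0.33, FDR = 0.0289). Both enzymes cut polymers of fungal walls. GRMZM2G112488 (pathogenesis-related protein 10) was higher by log2 1.61 ± 0.21 (FDR = 0.0297), and GRMZM2G374971 (zeamatin, an antifungal thaumatin-like protein), the remaining call and named after its values were seen, by 2.93 ± 0.41 (FDR = 0.0339). DESeq2 called 13 members higher and 2 lower. Contigs described as fungal took 4.56% and 14.7% of the counts in regurgitate replicates 1 and 2, the share of replicate 3 cannot be compared with them, and the part of fungal RNA in these calls was not tested.

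Protease inhibitors, which block digestive enzymes of insects, gave 1 call among 15 tested genes (6.67% against 1.28% of all genes). GRMZM2G075315, a Bowman-Birk trypsin inhibitor, reached 1891, 3113 and 2387 CPM against 193.6, 162.9 and 257.4 (log2 3.59 ± 0.37, FDR = 0.0193). GRMZM2G028393 (MPI, the maize proteinase inhibitor) had 4410, 20190 and 5860 CPM against 672, 1306 and 946. Its groups did not overlap, but replicate 2 was far above the other regurgitate libraries and the gene did not pass (log2 3.38 ± 0.74, FDR = 0.0874). GRMZM2G401328 (cystatin 6) had 21.1, 16.3 and 5.89 CPM against 1.84, 1.17 and 0.579 and missed the threshold with all libraries (FDR = 0.0585), while it passed without replicate 3 (FDR = 0.0277). The median of the list was -0.48, so most of its members lay below the control mean.

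**Figure D3:**
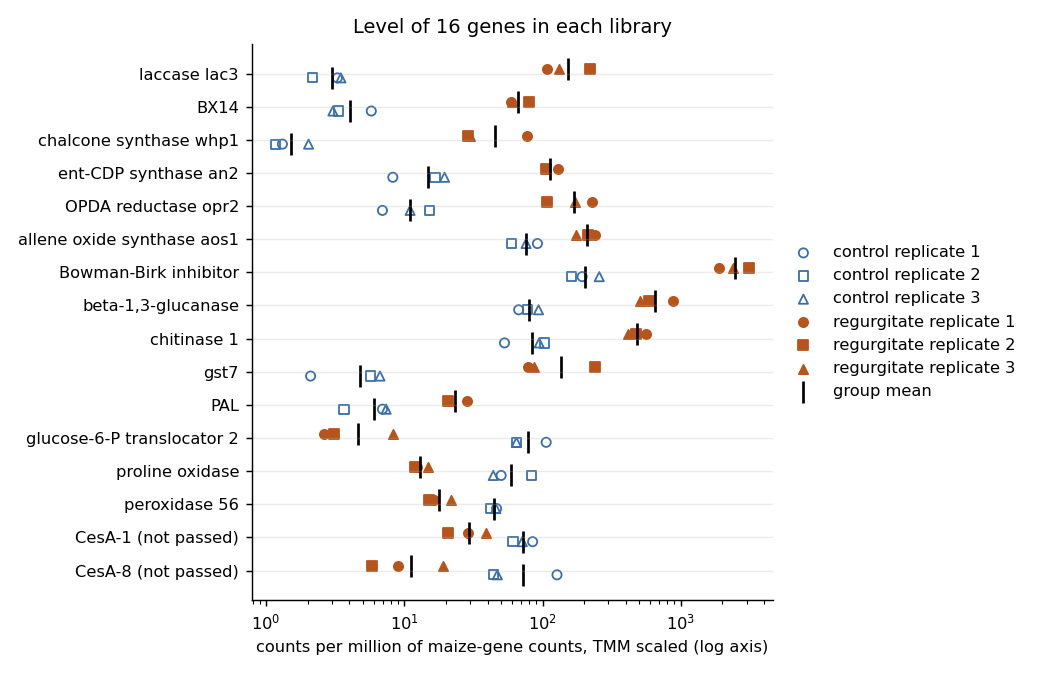
Points show the level of 16 genes in each of the 6 libraries, in CPM on a log axis, and vertical bars show group means. In 14 genes that passed the test, the filled regurgitate points lie on 1 side of the open control points, and both CesA genes, which did not pass, are separated too.

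Glutathione transferases join glutathione to reactive compounds. Of 63 tested genes of the list with antioxidant enzymes, 4 were higher and none was lower (6.35% called against 1.28% of all genes), with a median of 0.3. GRMZM2G028556 (gst7) had 78.1, 241 and 87.5 CPM against 2.1, 5.66 and 6.66 (log2 4.82 ± 0.65, FDR = 0.0322). GRMZM2G156877 (gst8) was higher by log2 3.58 ± 0.53 (FDR = 0.0386) and GRMZM2G416632 (gst23) by 2.23 ± 0.34 (FDR = 0.0386). The remaining call, GRMZM2G052571, was named after its values were seen (log2 1.79 ± 0.3, FDR = 0.0495). In this list 33.3% of the genes lay above all controls, against 15.2% of all genes, and 9.52% lay below, against 14.4%.

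WRKY factors, many of which act in defence, gave 2 calls upwards among 60 tested genes (3.33% against 1.28% of all genes), and 15 of the 60 lay above all controls, as did 15.2% of all genes. GRMZM2G304573 had 33, 21 and 44 counts in the regurgitate libraries and 2, 0 and 0 in the controls (FDR = 0.0281), and GRMZM2G083350 had 12.5, 36.1 and 10.9 CPM against 0.524, 1.17 and 1.45 (log2 4.21 ± 0.65, FDR = 0.0403). NAC factors gave 2 of 49 (4.08% against 1.28% of all genes), both higher, with 26.5% above all controls against 15.2% of all genes. GRMZM2G180328 (NAC20) was higher by log2 2.2 ± 0.33 (FDR = 0.0386) and GRMZM2G068973 by 2.8 ± 0.44 (FDR = 0.0429). Of 110 MYB factors, 1.82% were called and 22.7% lay above all controls, against 1.28% and 15.2% of all genes. GRMZM2G139284 (MYB94) was higher by 3.03 ± 0.45 (FDR = 0.0386) and GRMZM2G087955 (MYB139) lower. MYB139 had 18.7, 19.4 and 14.9 CPM against 71.4, 43.0 and 70.8 (log2 -1.81 ± 0.26, FDR = 0.0353). No gene of ethylene synthesis or of the AP2/EREBP family was called among 70 tested by edgeR, with 12 higher and 11 lower at an unadjusted p below 0.05, 5 and 4 by DESeq2, and 1 and 1 by voom with sample weights.

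Of 47 tested auxin-related genes, 2 were higher (4.26% called against 1.28% of all genes). GRMZM2G378106 (GH3), described as an amido synthetase that joins auxin to amino acids, had 26.02, 31.0 and 25.6 CPM against 1.84, 0.333 and 1.16 (log2 4.57 ± 0.49, FDR = 0.0193), and GRMZM2G332390 (a SAUR family member) had 37.4, 45.4 and 43.9 CPM against 0.786, 0.666 and 2.75 (log2 4.88 ± 0.52, FDR = 0.0193). The rest of the list leaned the other way, with 16 genes below all controls (34.0% against 14.4% of all genes) and a median of -0.41. In nitrogen metabolism, asparagine synthetase gene GRMZM2G093175 (asn2) was higher (log2 2.58 ± 0.39, FDR = 0.0386), while GRMZM2G053669 (asn3) had 50.2, 1290 and 185.7 CPM against 18.1, 10.8 and 9.42 with replicate 2 far above the others, and did not pass (FDR = 0.101). GRMZM2G126582, a NIP-type aquaporin (log2 2.25 ± 0.35, FDR = 0.0432), was the 1 call among 24 aquaporins (4.17% against 1.28% of all genes).

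Other described genes with the smallest FDR in the upward direction were of varied function. GRMZM2G334181, with the DUF26 domain of cysteine-rich secreted and receptor proteins, had 443, 598 and 494 CPM against 64.7, 63.1 and 80.3 (log2 2.88 ± 0.25). GRMZM2G403076, of the FAD-binding berberine family of oxidases, had 154, 197 and 260 CPM against 18.7, 19.8 and 26.5 (log2 3.23 ± 0.28), and replicate 3 was the highest. GRMZM2G450498, described as O-succinylhomoserine sulfhydrylase, had 66.2, 136 and 53.0 CPM against 3.41, 2.83 and 3.48 (log2 4.7 ± 0.43). In each of these the regurgitate libraries lay well above all controls. GRMZM2G148400 (glycosyl hydrolase family 17, the family of beta-1,3-glucanases) was higher by log2 3.41 ± 0.28, GRMZM2G170017 (carbonyl reductase 1) by 2.89 ± 0.28, GRMZM2G035542 (annotated as a vacuolar membrane proton pump) by 3.78 ± 0.37, and GRMZM2G125196 (an alkenal/one oxidoreductase, a type that detoxifies reactive carbonyls) by 5.11 ± 0.52. The FDR was 0.0193 for all 7.

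Among the genes that fell and carry a description, the lowest FDR belonged to GRMZM2G009223, glucose-6-phosphate/phosphate translocator 2, which imports hexose phosphate into plastids that make starch. It had 2.6, 3.1 and 8.22 CPM in the regurgitate libraries and 106, 64.5 and 64.8 in the controls (log2 -4.0 ± 0.49, FDR = 0.0264). Replicate 3 was the closest to the controls and still far below the lowest control. It was the only call among 42 tested genes of sucrose and starch metabolism (2.38% against 1.28% of all genes), whose median was -0.30. GRMZM2G008263 (GBSSIIa, a granule-bound starch synthase), which the word list did not hold and which was named after its values were seen, had 8.99, 3.88 and 9.0 CPM against 49.0, 30.1 and 36.8 (log2 -2.37 ± 0.36, FDR = 0.0386). The invertase genes of the list, which split sucrose, lay on the other side without passing. GRMZM2G139300 (incw1) had 151, 182 and 139 CPM against 62.1, 58.5 and 34.3 (FDR = 0.0524), and GRMZM2G394450 (IVR1) had 14.7, 66.7 and 19.2 CPM against 1.18, 1.33 and 3.04 (FDR = 0.0592).

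Proline oxidase carries out the first step of proline breakdown. Its gene GRMZM2G117956 had 12.3, 12.03 and 14.7 CPM against 50.2, 82.8 and 44.0 (log2 -2.17 ± 0.29, FDR = 0.0306). GRMZM2G161274 (ribonuclease 3) fell by 2.13 on the log2 scale, GRMZM2G082886 (a thioredoxin) by 2.09, GRMZM2G115762 (glycosyltransferase 5) by 2.81, GRMZM2G057514 (a cytochrome P450) by 3.18, GRMZM2G177110 (described as seed specific protein Bn15D17A) by 1.82 and GRMZM2G118992 (a cupin) by 1.77, at FDR values of 0.0322 to 0.0386. GRMZM2G321839 (peroxidase 56) had 16.3, 15.1 and 21.7 CPM against 46.5, 42.1 and 45.9 (log2 -1.33 ± 0.2, FDR = 0.0386). It was the 1 call among 13 class III peroxidases (7.69% against 1.28% of all genes), 5 of which lay below all controls (38.5% against 14.4% of all genes).

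Genes of wall formation were mostly at lower levels without any passing the test. Of 17 tested cellulose synthase and COBRA genes, 12 lay below all controls (70.6% against 14.4% of all genes) and the median log2 fold change was -1.77. edgeR called 0 of them, with 11 lower at an unadjusted p below 0.05, while DESeq2 called 8 lower and voom with sample weights 2. GRMZM2G112336 (CesA-1) had 28.9, 20.6 and 39.1 CPM against 84.8, 61.1 and 71.4 (log2 -1.29 ± 0.27, FDR = 0.084). GRMZM2G177631 (CesA-8) had 8.99, 5.82 and 18.9 CPM against 127, 44.1 and 47.1 (FDR = 0.0909). GRMZM2G039454 (CesA-3) had 18.7, 15.9 and 25.3 CPM against 37.5, 40.1 and 39.1 (FDR = 0.095). In each of them replicate 3 was nearest to the controls, and without it CesA-1 and CesA-3 passed (FDR = 0.0462 and 0.0493). Of this list, 2 genes were among those nearly without counts in replicate 3 alone. GRMZM2G001514, a fasciclin-like arabinogalactan protein of the wall, had 31.9, 3.49 and 15.7 CPM against 398, 135 and 193 (log2 -3.81 ± 0.79, FDR = 0.0824). Of 21 tubulin and actin genes 11 lay below all controls (52.4%), among them GRMZM2G152466 (tua4, an alpha tubulin), with 156, 87.3 and 162 CPM against 689, 401 and 471 (FDR = 0.0605). edgeR called 0 of these, with 3 higher and 7 lower at an unadjusted p below 0.05, DESeq2 called 3 higher and 6 lower, and voom called 3 lower. In bulk tissue, fewer cells of a type and less RNA per cell cannot be told apart.

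Further wall lists also lay below the median of all genes. Cell wall structural proteins had a median of -0.76 over 18 tested genes, with 38.9% below all controls, and expansins and wall-remodelling enzymes one of -0.78 over 29, with 31.0% below, against 14.4% of all genes. edgeR called 0 in both, with 2 higher and 6 lower, and 3 higher and 11 lower, at an unadjusted p below 0.05. DESeq2 called 2 higher and 5 lower in the first list and 1 higher and 10 lower in the second, and voom 1 higher and 1 lower, and 0. Cytosolic ribosomal proteins had a median of -0.44 over 230 tested genes, with 12.6% above 0 against 46.7% of all genes. The median was -0.21 without regurgitate replicate 2. Their summed level was not lower, with 44200, 54760 and 38030 CPM in regurgitate replicates 1, 2 and 3 against 38300, 53010 and 37980 in the controls. For this list edgeR called 0 genes, with 9 higher and 17 lower at an unadjusted p below 0.05, while DESeq2 called 8 higher and voom 0. Photosystem and light-harvesting genes had a median of -0.09 over 50, and histones and cyclins of -0.28 over 48. edgeR called 0 in both, with 1 higher and 4 lower, and 0 higher and 11 lower, at an unadjusted p below 0.05. DESeq2 called 1 higher and 2 lower in the photosystem list and 2 lower in the histone list, and voom called 0 in each. Among 36 heat shock genes none was called by edgeR, with 4 higher and 2 lower at an unadjusted p below 0.05, 3 higher by DESeq2 and 1 higher by voom. There the regurgitate libraries differed widely. GRMZM2G310431 (Hsp70) had 808, 3856 and 32.9 CPM against 63.8, 50.3 and 35.9, and GRMZM5G833699 (hsp82) had 330, 1923 and 7.14 CPM against 31.1, 9.66 and 14.2. Both were far above the controls in replicates 1 and 2 and below all controls in replicate 3. Hsp70 and hsp82 missed the threshold with all libraries (FDR = 0.154 and 0.17) and passed without replicate 3 (FDR = 0.0317 and 0.037). A fit restricted to features with 1 identifier did not hold these 2 genes. Whether a different counting of replicate 3 lowered their levels there was not tested.

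**Figure D4:**
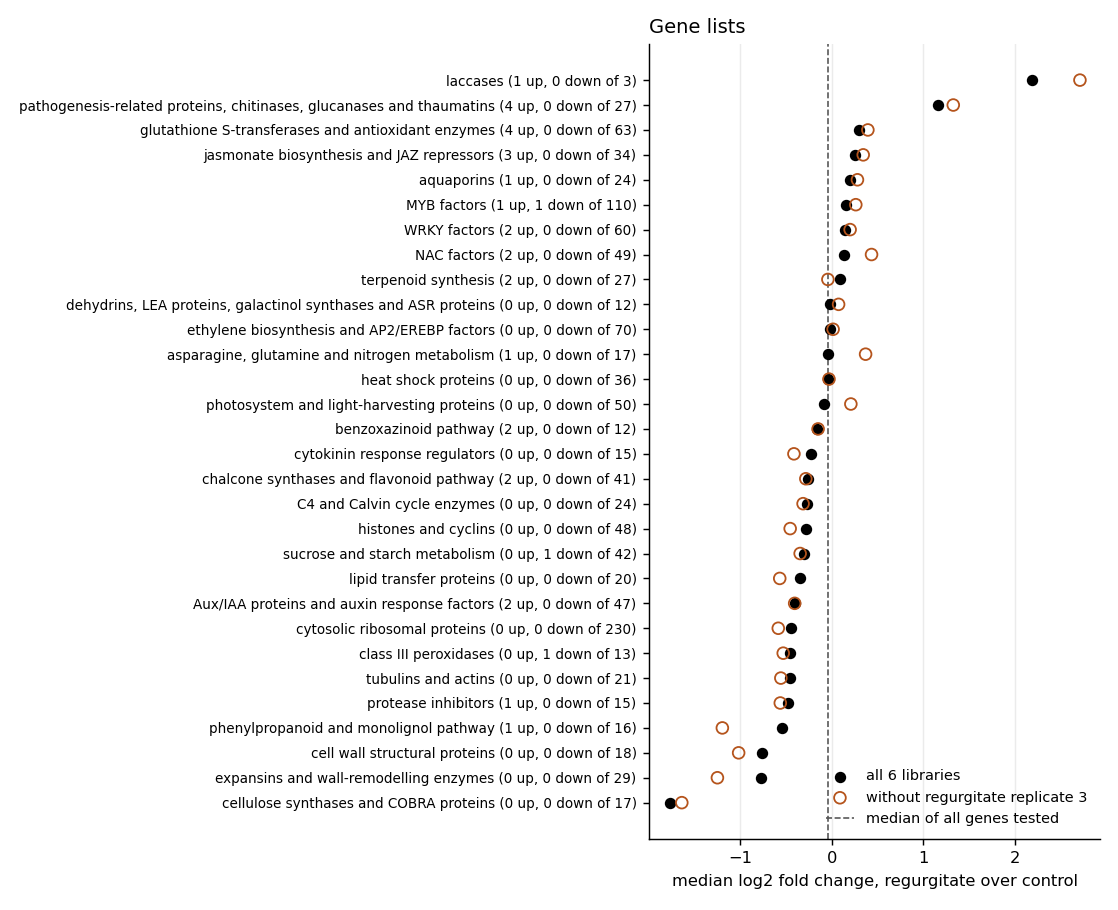
Filled points show the median log2 fold change, regurgitate over control, of the tested members of 30 gene lists, open points the same without regurgitate replicate 3, and the dashed line the median of all genes tested (-0.04). The numbers beside each name count the genes that passed the test in each direction. The lists of cellulose synthases (-1.77) and pathogenesis-related proteins (1.16) lie far to either side.

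The design of the study set regurgitate against wounding, and genes that it names for that contrast were also read against the untreated plants. These genes were chosen on the same regurgitate libraries and are no independent evidence. GRMZM2G030583 (tps26, a monoterpene synthase) had 28.2, 8.15 and 48.9 CPM against 65.1, 42.5 and 48.4 in the controls, groups that overlapped (log2 -0.85 ± 0.55, FDR = 0.433). GRMZM2G025441 (peroxidase 70) had 65.1, 18.6 and 65.8 CPM against 249, 157 and 214, below all controls without passing (FDR = 0.104). Of the other named genes, GRMZM5G843555 (P4H4, a prolyl 4-hydroxylase) had 373 CPM in control replicate 1 and 2.33 to 17.5 CPM in the other 5 libraries. GRMZM2G013448 (an aminocyclopropanecarboxylate oxidase, the last enzyme of ethylene synthesis) had 32.4, 22.9 and 92.6 CPM against 1112, 37.0 and 289. GRMZM2G045155 (B12D protein), GRMZM2G099420 (cinnamoyl-CoA reductase 2) and GRMZM2G412598 (annotated as protein TsetseEP) overlapped between the groups, with FDR values of 0.631, 0.961 and 0.751.

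Osmoprotective and chalcone synthase genes of that contrast gave 1 call. The dehydrin gene GRMZM2G079440 (dhn1), of a family that protects cells that lose water, had 68.4, 45.4 and 123.3 CPM against 20.4, 5.0 and 6.81, above all controls without passing (log2 2.87 ± 0.63, FDR = 0.0874). GRMZM2G373522 (dhn2) had 18.9, 25.2 and 0.62 CPM against 22.8, 26.2 and 15.2 (FDR = 0.766). Of the chalcone synthase genes, GRMZM2G435393 had 34.3, 43.1 and 34.4 CPM against 14.8, 8.33 and 7.53 and passed (log2 1.86 ± 0.31, FDR = 0.0481). GRMZM2G131529 and AC191551.3_FG003 did not (log2 1.51 ± 0.55, FDR = 0.209, and 1.7 ± 0.4, FDR = 0.104). Lists of genes came from the study's own regurgitate against wounding contrast, named induced and repressed. In the induced list, 90 genes had a median log2 fold change of -1.05 against the untreated plants, and edgeR called 0 of these, with 3 higher and 30 lower at an unadjusted p below 0.05, DESeq2 called 3 higher and 17 lower, and voom 4 lower. In the repressed list, 11 genes had a median of 1.51, with 2 called higher by edgeR (18.2% against 1.28% of all genes). DESeq2 and voom each called 4 higher, and 45.5% of the list lay above all controls, against 15.2% of all genes. Both medians lay on the other side of 0 from the direction in which the lists were named.

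Replicate 3 moved with the other regurgitate libraries in the called genes, at a somewhat smaller distance. Its median log2 difference from the control mean was 2.63 in the 208 higher genes, against 2.96 for the mean of replicates 1 and 2, and it was nearer to the controls than that mean in 159 of them. In the 37 lower genes the medians were -1.97 and -2.21, and replicate 3 was nearer to the controls in 26. All 6 libraries had entered that test. In a fit that did not use replicate 3, 404 genes were higher (2.04% of 19789 tested) and 86 lower (0.435%). Of the 404, replicate 3 lay above all 3 controls in 371 (91.8%), where 27.4% of all tested genes did so. Of the 86, it lay below all controls in 83 (96.5%, against 31.6% of all tested genes). These shares use the same controls as the fit. Of the 404 genes, replicate 3 was nearer to the controls than both other regurgitate libraries in 299 (74.0%, against 35.6% of all tested genes). The 404 were chosen on those other libraries, which favours such a result. In the fit without replicate 1 the library left out was nearer in 23 of 32 higher genes (71.9%). Without replicate 2 it was nearer in 41 of 157 (26.1%). Among the 334 genes nearly absent from replicate 3, 4 were called higher and 3 lower in the fit without replicate 3. Replicate 2 was also uneven. It stood more than 2-fold above the other 5 libraries in 1080 tested genes and more than 2-fold below all of them in 1482, against 17 and 1019 for replicate 3 and 57 and 49 for replicate 1.

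**Figure D5:**
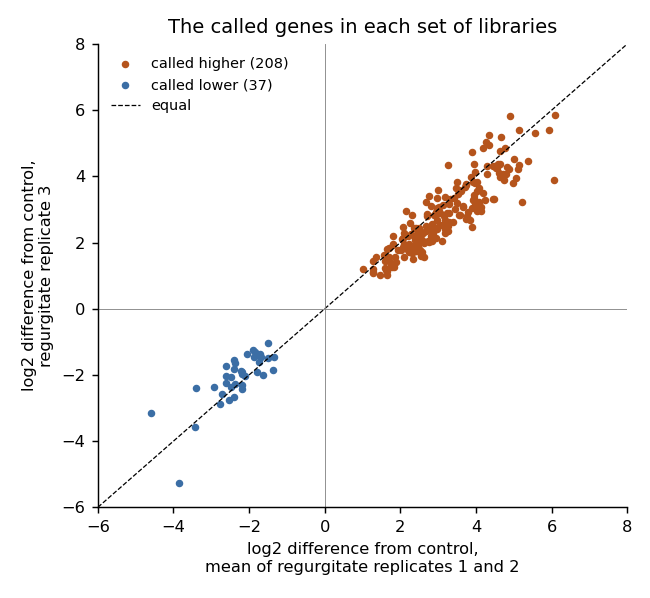
Each point is 1 of 245 called genes, by its log2 CPM difference from the control mean in regurgitate replicates 1 and 2 (mean, horizontal) and in replicate 3 (vertical). The groups of called genes did not overlap, so replicate 3 lies on the same side as the others in every gene. Its median was 2.63 against 2.96 in the 208 higher genes.

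Wounded plants that received buffer were compared with the same untreated plants. The control libraries are shared, so values are set side by side and no overlap is read as a result. Against control, wounding and regurgitate had log2 values of 6.86 and 5.66 for lac3, 7.37 and 4.02 for BX14, 5.61 and 3.04 for the glucanase GRMZM2G125032, 5.63 and 3.59 for the trypsin inhibitor GRMZM2G075315, and 3.26 and 1.47 for aos1. For the lower genes, the values were -5.95 and -4.0 for the translocator GRMZM2G009223, -2.33 and -1.33 for peroxidase 56, and -0.76 and -2.17 for proline oxidase, whose wounding value did not pass (FDR = 0.453). Over all genes wounding against control gave 3747 higher (19.6%) and 3691 lower (19.3%) calls, 38.8% of 19166 tested. The difference itself was tested between regurgitate and wounding. The 208 higher genes had a median log2 of -1.19 in regurgitate over wounding, with 178 below 0, and 2 of them passed that test, both lower than in wounding. These were the chalcone synthase GRMZM2G435393 (log2 -3.36, FDR = 0.0418) and GRMZM2G015912, an EF hand protein named after its values were seen (log2 -2.13, FDR = 0.0479). For lac3 and BX14 the difference did not pass (FDR = 0.166 and 0.0783). Of the 37 lower genes, 24 passed the count filter of this comparison. The filter drops genes that are low in both groups, so values of the 24 do not describe all 37. Of the 24 edgeR called 0, with 11 at an unadjusted p below 0.05 and 4 called by DESeq2, and their median was 0.43. Of the 208 higher genes, 115 had an unadjusted p below 0.05 and DESeq2 called 95. Over all 18285 genes edgeR called 2 higher (0.0109%) and 9 lower (0.0492%) with regurgitate, 0.0602% in all. With the replicate number as a block, edgeR called 0 genes, with 4570 at an unadjusted p below 0.05, and DESeq2 without the block called 1633 (8.93%). No source used here states that equal replicate numbers belong together.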

How the data were processed

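MACE libraries of 12 maize stem samples were deposited as 1 table of raw counts per feature. The authors removed duplicate reads with TrueQuant, aligned the rest with Novoalign 3.00.05, and also counted contigs assembled from unmatched reads and genome intervals without a gene. The deposited counts were used as they stood. Normalized columns and the authors' own fold changes and p-values were not used. Reads that match several places can be shared between similar genes, and 307 features join several maize identifiers.

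Features with a maize gene identifier were tested with edgeR 4.0.16 in R 4.3.3 (filterByExpr, TMM factors, quasi-likelihood F test, Benjamini-Hochberg adjustment, threshold 0.05) on the 3 regurgitate and 3 control libraries. Standard errors are those of the log2 fold changes of that fit. Alternatives were DESeq2 1.42.0, limma 3.58.1 voom with sample weights, robust edgeR, other scaling and filters, other feature sets, all 12 libraries, the replicate number as a block, and each library left out. The deviations of same-numbered regurgitate and wounding samples from their group means correlated at 0.172, 0.34 and 0.174, and those of unlike-numbered samples at -0.26 to 0.122. Wounding replicate 1 and control replicate 3, of unlike number, gave 0.311. No source used here states that equal numbers belong together, so a pairing is not established and the block is only an alternative. For same-numbered regurgitate and control samples the values were -0.083, -0.054 and -0.099. Depth was 6008657 to 8508332 counts in the 6 libraries. On maize genes, which the tests used, it was 5808622 to 7446021 in the controls. In regurgitate replicates 1, 2 and 3 it was 4373471, 3047770 and 6243792. In data simulated for this comparison, 200 of 19171 genes were changed. The edgeR test recovered 36.5% of changes of log2 2 and 90% of changes of log2 4, and called 4 and 11 unchanged genes. DESeq2 recovered 80% and 93% and called 69 and 67 unchanged genes, so its counts are read with that limit. The simulation drew independent counts with dispersions that edgeR had estimated and held no uneven library, unlike regurgitate replicates 2 and 3 here.

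Named genes were the 10 with the smallest FDR in each direction among described genes, the 3 smallest of each list, genes that the study names, and the replicate 3 examples. The text gives part of these and marks genes outside the rule. The members and lists were chosen with earlier results of these data known. Lists were made from words in the gene descriptions. Each library is 1 plant. No gene coordinates are printed, because the assembly of the annotation at hand differs from that of the counts.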

Additional observations from a re-analysis of the deposited data

Results flagged for a closer look

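Counts on contigs, which lie outside the tests of maize genes, were above every control in 2 regurgitate libraries. Contigs described as fungal took 4.56% of counts in regurgitate replicate 1 and 14.7% in replicate 2, against 0.238% to 0.501% in the controls. Contigs with no described organism took 8.78% and 21.5% in the same libraries. In replicate 3 these shares were 0.06% and 0.648%, in a library that also lacked many contigs held by all controls, so its values cannot be compared with the others. The source of these reads was not tested.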

How the results depend on the processing

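The number of genes called between regurgitate and control depended on the setting. Against 245 calls, DESeq2 gave 1707, a fit to all 12 libraries 1190, voom with sample weights 578, and fits to every feature of the table or with the replicate number as a block 0 each, with 3085 and 2674 genes at an unadjusted p below 0.05. Fits that left out 1 library gave 0 to 490. Scaling by totals alone moved the median log2 fold change of all genes from -0.04 to -0.18 and kept 212 of the 245 calls. All tested genes among the 245 kept their direction in each of the 17 settings, but their groups did not overlap, so a change of sign was hardly possible. For regurgitate against wounding, DESeq2 gave 1633 calls against 11, the replicate block 0, and fits that left out 1 library 0 to 665. Values that changed sign belonged to genes that were not called. With the replicate block, GRMZM5G878558 came to -0.29 and GRMZM2G085924 to -0.32. With voom, these were -1.05 and -1.55, and GRMZM2G081583,GRMZM2G027385 was -0.82. Over the fits that left out 1 library, GRMZM5G843555 ranged from -4.0 to 1.04, GRMZM2G099420 from -1.63 to 4.08, GRMZM2G373522 from -1.17 to 0.064, GRMZM2G081583,GRMZM2G027385 from -0.33 to 3.82, GRMZM2G021617,GRMZM2G058070 from -0.74 to 0.44, GRMZM5G878558 from -2.16 to 1.59 and GRMZM2G085924 from -1.68 to 1.37. The cause was not tested. List counts by DESeq2 and voom, and without regurgitate replicates 1 and 2, were chosen after seeing the data. With 3 plants a group, changes of log2 1 were not called by edgeR in simulated data, so a gene that did not pass may still differ.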
